A study of Mus musculus with 16 samples.

Results

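The genes described here are 9 genes of hepatic lipogenesis, the synthesis of fatty acids and triglyceride from sugar-derived carbon: Srebf1, Thrsp, Acly, Me1, Acaca, Fasn, Elovl6, Scd1 and Pnpla3. They were chosen by name, as the rows of the deposited expression table that carry these symbols. Each symbol had 1 row among 57010 genes, and all 9 were tested. The values are TPM, levels scaled for transcript length and library size, and 11766 genes averaged at least 1 TPM and entered the test. Liver poly(A) RNA of 16 wild-type male C57BL/6J mice was sequenced. There were 4 groups of 4, with a stated age of 8 to 12 weeks. The paper has the 3-month diet described below begin at 8 weeks, so mice on that diet were older at sampling. Control mice received neither agent. Cd mice received CdCl2 intraperitoneally at 1.25 mg/kg daily for 7 days. Se mice ate a diet with 2 ppm selenomethionine (SeMet) over 3 months, and Cd+Se mice ate that diet and were given the injections in its final 7 days. Whether control and Se mice were injected with vehicle, and the feeding state and hour at sampling, are not given in the sources used here. Each mouse carries its own number in the labels, so the spread given is between numbered mice, and each has 1 column although its label names a pair of runs.

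In lipogenesis, citrate leaves the mitochondrion and is cut to acetyl-CoA, which is carboxylated to malonyl-CoA and built into palmitate. Palmitate is then elongated, desaturated and esterified. In liver the pathway runs after carbohydrate feeding and falls off in fasting, and insulin drives it largely through Srebf1, whose product SREBP-1c binds and activates the genes of the enzymes. Acly (ATP citrate lyase) yields acetyl-CoA, Me1 (malic enzyme) yields NADPH, Acaca (acetyl-CoA carboxylase) makes malonyl-CoA and Fasn (fatty acid synthase) makes palmitate. Elovl6 elongates palmitate, Scd1 is the main hepatic stearoyl-CoA desaturase, Thrsp (Spot 14) is a nuclear protein that rises with lipogenic feeding, and Pnpla3 is a lipid droplet protein whose transcript follows carbohydrate intake.

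The genes lie on 6 chromosomes in GENCODE M21 (GRCm38), to which they were matched by Ensembl identifier. Srebf1 (ENSMUSG00000020538, chr11:60199089-60222581), Fasn (ENSMUSG00000025153, chr11:120805846-120824547) and Acly (ENSMUSG00000020917, chr11:100476353-100528000) are on the minus strand of chromosome 11, and Acaca (ENSMUSG00000020532, chr11:84129672-84401651) is on its plus strand. Thrsp (ENSMUSG00000035686, chr7:97412938-97417730), Me1 (ENSMUSG00000032418, chr9:86581371-86695953) and Scd1 (ENSMUSG00000037071, chr19:44394455-44407879) are on minus strands, while Elovl6 (ENSMUSG00000041220, chr3:129532355-129638495) and Pnpla3 (ENSMUSG00000041653, chr15:84167837-84187236) are on plus strands. Exons of Srebf1 overlap those of Rai1 on the opposite strand, which was between 2.73 and 5.3 TPM. Exons of Elovl6 overlap those of Gm35986 on the opposite strand, at 3.14 to 24.3 TPM, and the sources used here do not say whether reads were assigned by strand, so low Elovl6 values are less certain. The table gives 1 value per gene and does not separate the transcripts of Srebf1.

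The sequences just upstream of the start are shown for Srebf1, the gene called after Cd, and for Thrsp and Fasn. The latter are among the genes whose levels rose and fell together from mouse to mouse, and are not the closest pair. Each line gives the 250 bases before a RefSeq start on GRCm38.p6, read 5′ to 3′ along the gene's own strand, with the letters CCAAT or the same letters on the other strand (ATTGG) in capitals. CCAAT is the core of the site of NF-Y, a factor that works beside SREBP at many lipogenic genes. The Srebf1 line is 1 of 3 RefSeq windows of that gene. All 3 lines shown hold these letters, but the windows of Elovl6, Acaca and Acly and a window each of Srebf1 and Me1 do not.
Srebf1, chr11:60210472-60210721, minus strand: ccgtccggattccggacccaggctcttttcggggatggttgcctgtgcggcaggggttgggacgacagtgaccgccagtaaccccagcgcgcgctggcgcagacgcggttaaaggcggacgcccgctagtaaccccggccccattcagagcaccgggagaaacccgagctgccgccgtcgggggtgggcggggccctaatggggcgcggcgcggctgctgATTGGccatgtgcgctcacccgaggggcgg
Thrsp, chr7:97417551-97417800, minus strand: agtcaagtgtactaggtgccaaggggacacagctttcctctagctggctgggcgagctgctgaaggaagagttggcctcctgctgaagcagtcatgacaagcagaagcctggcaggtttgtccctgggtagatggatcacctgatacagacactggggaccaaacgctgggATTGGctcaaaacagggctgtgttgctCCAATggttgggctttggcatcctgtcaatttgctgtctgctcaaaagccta
Fasn, chr11:120824548-120824797, minus strand: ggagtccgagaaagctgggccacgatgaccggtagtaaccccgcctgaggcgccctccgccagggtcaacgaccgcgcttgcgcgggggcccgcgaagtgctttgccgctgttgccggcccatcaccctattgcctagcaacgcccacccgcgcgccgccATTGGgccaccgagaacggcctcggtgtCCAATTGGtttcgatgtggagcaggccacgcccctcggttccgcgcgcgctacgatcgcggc
In the Srebf1 window the match begins 30 bases before the start. Those of Thrsp begin 79 and 52 bases before it, and those of Fasn 90, 62 and 59 bases before it, with the last pair overlapping. RefSeq windows were given for 8 of the 9 genes (all but Scd1), 11 windows in all, of which 6 held the letters, against 33.8% of 32851 windows of all genes. The GC box letters GGGCGG were in 5 of the 11 windows and in 32.7% of all windows. The E-box CACGTG and the sterol response element letters TCACNCCAC were in 0 of the 11 windows, and in 6.02% and 1.05% of all windows. A match is a match of letters only, and its absence says only that these letters are not in these 250 bases.

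Levels of the 9 genes spanned about 3 orders of magnitude. By the mean TPM over 16 libraries, which is scaled for length, Scd1 was the highest at 3208 TPM, followed by Thrsp at 346, Fasn at 182, Me1 at 144, Srebf1 at 96.1, Acly at 88.7, Elovl6 at 58.3, Acaca at 26.9 and Pnpla3 at 3.26. Scd1 (1088 to 6899.7 TPM over single mice) lay apart from Thrsp (55.1 to 686 TPM). The order of the means was not the same in each group: in control mice Srebf1 (168 TPM) was above Me1 (139.5 TPM), and in Cd mice it was below Acly (64.9 against 77.1 TPM). From Thrsp down to Acaca the ranges of neighbours in this order overlapped widely, and Acaca (10.5 to 56.3 TPM) met Pnpla3 (0.05 to 14.1 TPM) only at the extremes. The other desaturase genes of the family were near 0 in this liver RNA, with Scd2 between 0.63 and 2.02 TPM and Scd3 and Scd4 at or below 0.03 TPM. Of 5 adipocyte markers, which would point to fat tissue in the sample, Lep and Retn were at 0 in all 16 libraries, Adipoq and Plin1 did not exceed 0.05 TPM, and the summed level of all 5 did not exceed 1.48 TPM.

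**Figure D1:**
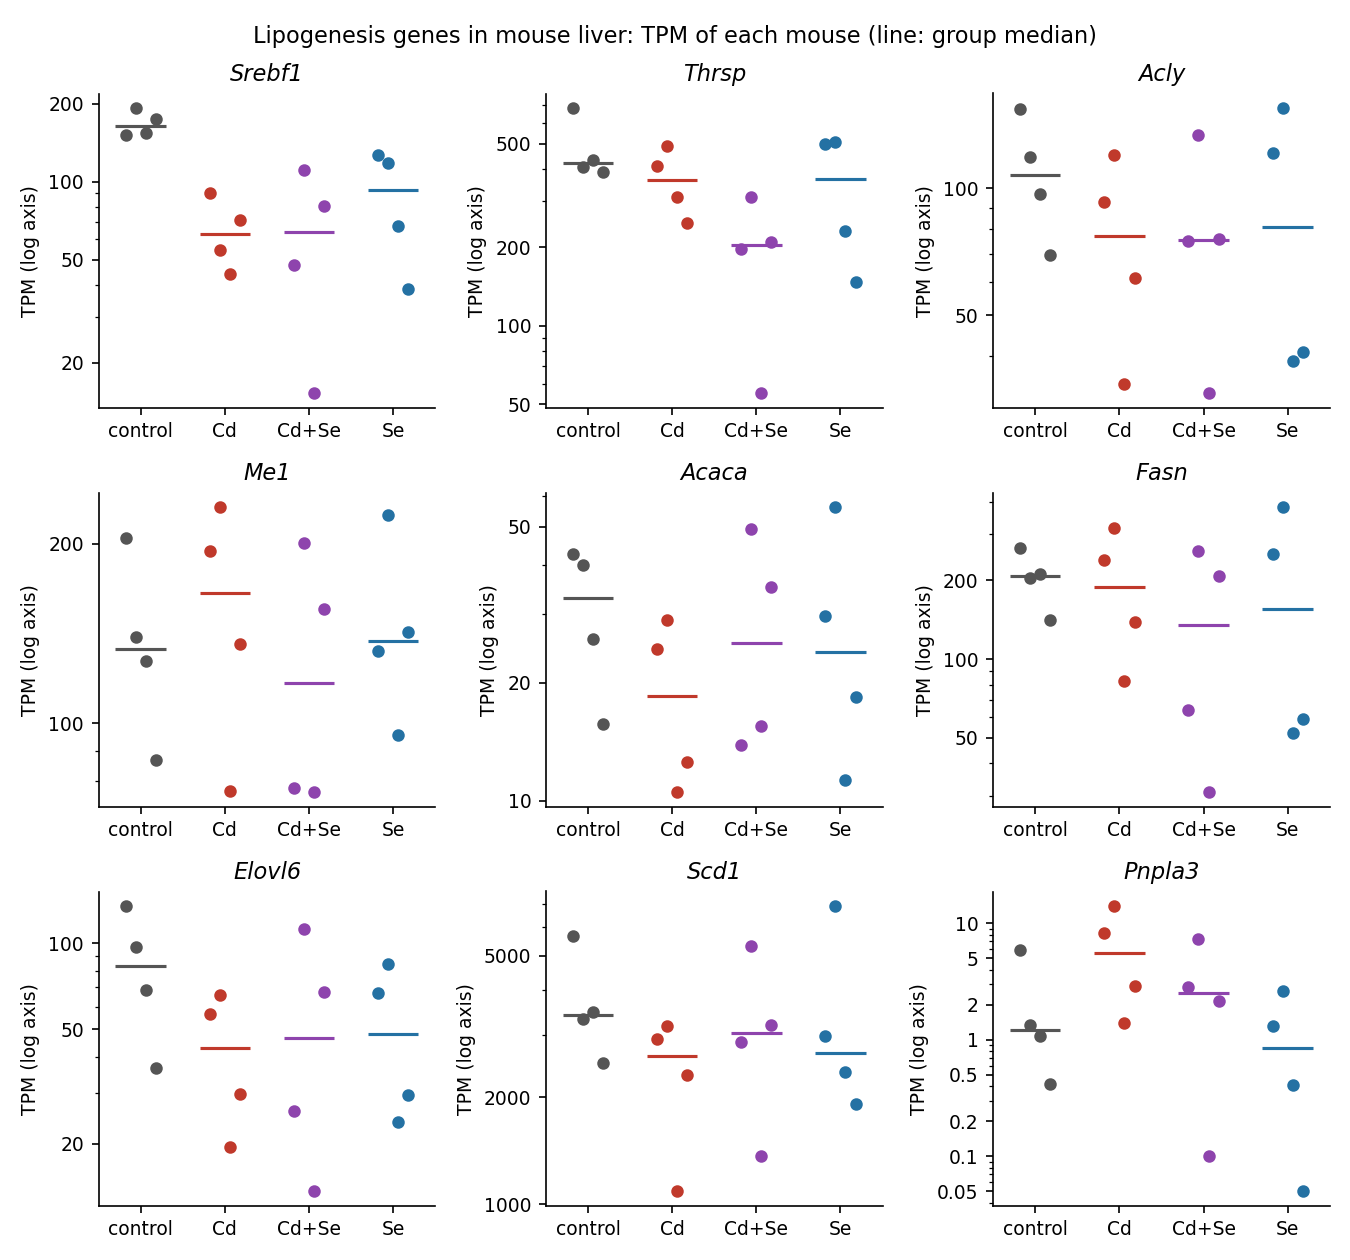
TPM of the 9 lipogenesis genes in each of the 16 mice, on a log axis in each panel, with a point per mouse and a line at each group's median. Srebf1 is the gene whose 4 control mice lie above all 12 others, and for most of the other genes the 4 groups overlap over nearly their whole range.

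Srebf1, the regulator, was the gene in which control mice stood apart. Its level was 151, 193, 154 and 175 TPM in the control mice numbered 27 to 30. In Cd mice 1, 2, 5 and 6 it was 90.1, 54.6, 43.9 and 71.1 TPM. In Cd+Se mice 13 to 16 it was 47.6, 111, 15.2 and 80.3 TPM. Every control mouse lay above every other mouse, since Se mice 39, 40, 41 and 44 had 127, 118, 67.4 and 38.6 TPM and the lowest control mouse stood above all 12 mice that received Cd, Se or both. How many of all genes tested were separated in this way was not counted, and shares for pairs of groups are given below. The control mean was 168 ± 19.6 TPM (SD, n = 4). The Cd mean of 64.9 ± 20.2 TPM and the Cd+Se mean of 63.6 ± 41.4 TPM were nearly equal, and Se mice averaged 87.6 ± 41.8 TPM.

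Cd against control asks what the metal alone does, and here Srebf1 fell by 1.40 log2 units (standard error 0.47, 95% interval -2.40 to -0.40, limma adjusted p = 0.0342), to 0.386 of the control mean. It was the only one of the 9 genes past the threshold of 0.05, and so 1 of 9 was called (11.1%) where 30.8% of all 11766 genes tested were called. The groups did not overlap for 1 of the 9 genes, again Srebf1, and for 34.2% of all genes tested, and its exact two-sided permutation p was 0.0286, the smallest that 4 mice against 4 allow. The call for Srebf1 was not firm. It was lost with no filter on low values (adjusted p = 0.0983), with each library centred on its median (log2 fold change -1.18, adjusted p = 0.0639), and without any 1 of control mice 27, 28, 29 and 30 or Cd mice 2, 5 and 6 (adjusted p from 0.0518 to 0.103). In a model of only the control and Cd mice, where Srebf1 varied least, the adjusted p was 0.00203. The median log2 fold change of all genes was -0.17 as deposited, -0.01 after quantile normalization, 0.05 after centring and -0.22 after rescaling, and that of Srebf1 ran from -1.45 to -1.18 over these scalings.

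The enzymes did not follow Srebf1 past the threshold after Cd. Fasn was 265, 204, 211 and 141 TPM in control mice 27 to 30 and 239.65, 318, 82.8 and 138 TPM in Cd mice 1, 2, 5 and 6. The highest and the lowest of these 8 values were both from Cd mice, and the log2 fold change of Fasn was -0.22 (standard error 0.69, limma adjusted p = 0.834). Its sign turned when libraries were centred on their median (4.27e-05) and without Cd mouse 5 (0.13). Scd1 was 5678, 3321, 3478 and 2491 TPM in control mice and 2911, 3173, 1088 and 2308 TPM in Cd mice, which put its log2 fold change at -0.70 (standard error 0.44, adjusted p = 0.242). The same 4 Cd mice, in the same order, had Elovl6 at 56.5, 65.9, 19.4 and 29.8 TPM, against 135, 97.1, 68.8 and 36.6 TPM in controls, and its log2 fold change of -0.96 (standard error 0.60) was the largest among the enzymes but also missed the threshold (adjusted p = 0.233). Acaca had a log2 fold change of -0.69, Acly of -0.59 and Thrsp of -0.40, with adjusted p of 0.303, 0.385 and 0.54. Me1 was at 139.5 ± 49.0 TPM in control and 159.5 ± 67.4 TPM in Cd mice (SD, n = 4), a log2 fold change of 0.14 (adjusted p = 0.8). The median log2 fold change of the 9 genes was -0.59, beside -0.17 over all genes tested, with 7 negative and 2 positive values.

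Pnpla3 stood at the other end. It was 5.89, 1.35, 1.08 and 0.42 TPM in control mice 27 to 30 and 8.29, 14.1, 1.39 and 2.91 TPM in Cd mice 1, 2, 5 and 6. Of the control mice, 27 reached into the range of the Cd mice and the other 3 were below all of them. The log2 fold change of Pnpla3 was 1.19 (standard error 0.65, 95% interval -0.19 to 2.57, limma adjusted p = 0.175). At these low levels log2(TPM + 1) understates the change. The ratio of the mean TPM was 3.05, a value that rested on single mice, being 7.03 without control mouse 27 and 1.92 without Cd mouse 2. In Cd+Se mice Pnpla3 was 2.83, 7.28, 0.1 and 2.17 TPM and in Se mice it was 1.3, 2.62, 0.41 and 0.05 TPM.

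**Figure D2:**
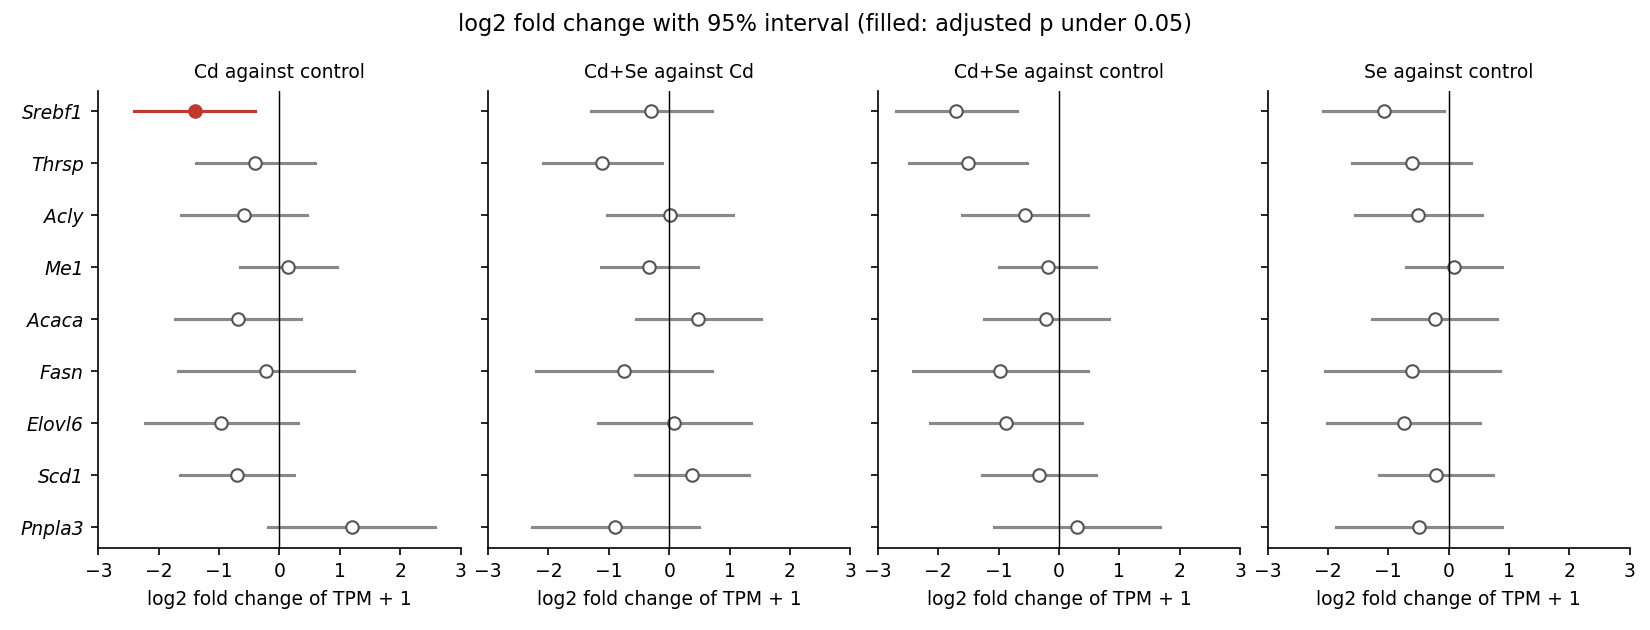
Log2 fold change of TPM + 1 for each lipogenesis gene in 4 comparisons, with bars for the 95% interval from limma and a filled point where the adjusted p was under 0.05. Srebf1 in Cd against control is the single filled point, and intervals for most genes span from a fall to a rise.

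Cd+Se against Cd compares the diets among mice given the metal. It includes any effect of the diet itself, and the change in the response to Cd is the interaction given below. None of the 9 genes was called by limma, where 15.9% of all genes tested were called. The unadjusted p was under 0.05 for 1 of the 9, and for 33.1% of all genes. The groups overlapped for all 9 genes, while they did not for 19.2% of all genes. Srebf1 had a log2 fold change of -0.30 (standard error 0.47, 95% interval -1.30 to 0.70, adjusted p = 0.695), and this difference became 0.26 without Cd+Se mouse 15. The gene with the unadjusted p under 0.05 was Thrsp. It was 411, 490.1, 311 and 248 TPM in Cd mice 1, 2, 5 and 6 and 197, 311, 55.1 and 210.1 TPM in Cd+Se mice 13 to 16, lower in all but Cd+Se mouse 14, which lay within the range of the Cd group. Its log2 fold change was -1.11 (standard error 0.46, adjusted p = 0.11), or -0.59 without mouse 15. Elsewhere the estimates ran from 0.48 for Acaca and 0.38 for Scd1 to -0.75 for Fasn and -0.89 for Pnpla3, with a median of -0.30 beside 0.17 over all genes.

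Cd+Se against control shares its control mice with the comparison of Cd alone. Here limma again called 0 of the 9 genes, where 0.484% of all genes were called. The unadjusted p was under 0.05 for 2 of the 9, and for 10.9% of all genes. For these 2, Srebf1 and Thrsp, the groups did not overlap, beside 8.86% of all genes. The log2 fold change of Srebf1 was -1.70 (standard error 0.47, 95% interval -2.70 to -0.70, adjusted p = 0.145), and that of Thrsp -1.51 (standard error 0.46, adjusted p = 0.213). Thrsp had 686, 408, 433 and 389.9 TPM in control mice 27 to 30, all above the highest Cd+Se mouse at 311 TPM. The unadjusted p of Srebf1, 0.0024, was below that in Cd against control, 0.00905, yet its adjusted p was higher, because the Benjamini-Hochberg adjustment depends on how many of all genes had small p-values and only 57 genes were called here against 3619 there. Both unadjusted p-values of Srebf1 come from limma with a spread pooled over the 4 groups. The SD of its log2(TPM + 1) was 0.16 in control, 0.44 in Cd and 1.22 in Cd+Se mice. These p-values therefore do not rank the comparisons by strength. Without Cd+Se mouse 15 the differences were smaller, -1.14 for Srebf1 and -0.99 for Thrsp. Among the other 7 genes the log2 fold change ran from -0.97 for Fasn to 0.30 for Pnpla3, and 8 of the 9 values were negative with a median of -0.57, beside -0.02 over all genes.

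Se against control asks what the diet alone did, and limma called 0 of the 9 genes and 0% of all genes tested, with an unadjusted p under 0.05 for 1 of the 9 and for 454 of all genes. That gene was Srebf1, whose log2 fold change was -1.07 (standard error 0.47, 95% interval -2.07 to -0.07, adjusted p = 1). The Se and control mice did not overlap for Srebf1 alone among the 9, and for 3.09% of all genes. Without Se mouse 44 the Srebf1 estimate was -0.73. Se mice were split in Fasn, which was 252 and 382 TPM in mice 39 and 40 and 52.4 and 59.0 TPM in mice 41 and 44. Against the control range of 141 to 265 TPM, mouse 39 lay inside, mouse 40 above and mice 41 and 44 below. Acly showed the same split, with 121 and 155 TPM in the first pair and 38.9 and 41.02 TPM in the second. Me1 did not, with 132 and 223 TPM in mice 39 and 40 and 95.5 and 142 TPM in mice 41 and 44.

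The remaining comparisons gave no calls. In Cd+Se against Se, limma called 0 of the 9 genes and 0.714% of all genes. None of the 9 had an unadjusted p under 0.05, where 10.9% of all genes did. The interaction of Cd and Se measures whether the effect of Cd differed between the diets. It called 0 of the 9 genes and 1.04% of all genes. Again 0 of the 9 were under an unadjusted p of 0.05, where 21.3% of all genes were. For Srebf1 the interaction was 0.77 (standard error 0.67, 95% interval -0.64 to 2.19, limma adjusted p = 0.522). A stronger, an unaltered, a reduced and a reversed effect of Cd under Se all lay inside the interval.

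The 9 genes varied widely between mice of a group. The within-group SD of log2(TPM + 1), pooled over the 4 groups, was 0.61 for Me1, 0.72 for Scd1, 0.75 for Thrsp, 0.76 for Srebf1, 0.79 for Acaca, 0.80 for Acly, 0.97 for Elovl6, 1.06 for Pnpla3 and 1.12 for Fasn. The median over all 11766 genes was 0.23, and the 9 genes lay between the 95.5th and the 98.6th percentile. Standard errors were wide accordingly: the median standard error of a log2 fold change was 0.49 for the 9 genes and 0.16 for all genes. Other listed genes, named after their values were seen, had standard errors as wide in Cd against control, among them Igfbp1 (0.90), Angptl8 (0.58), Acss2 (0.52), Elovl3 (0.52) and Acacb (0.51). Fasn differed 8.38-fold between the lowest and highest Cd+Se mouse and 7.29-fold among Se mice, but 1.88-fold among control mice. Srebf1 was the tightest of the 9 in control mice, with an SD of 0.16 and a 1.28-fold range, and spread to an SD of 1.22 and a 7.30-fold range in Cd+Se mice. In control mice Me1, Acaca, Elovl6 and Pnpla3 already had SDs from 0.51 to 0.98.

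**Figure D3:**
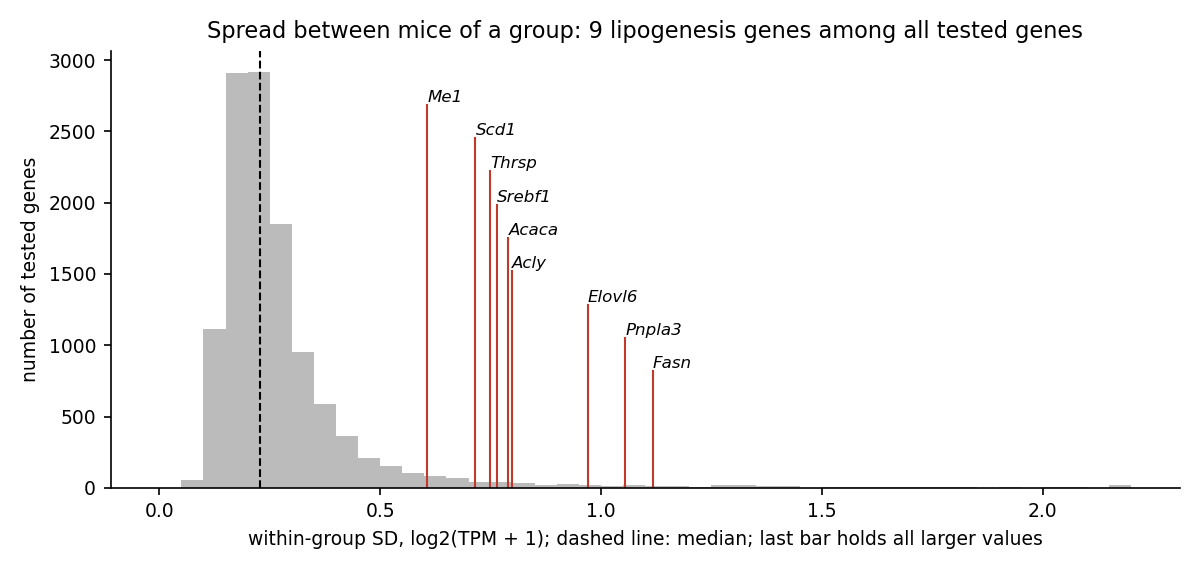
Histogram of the within-group SD of log2(TPM + 1) over the 11766 genes tested, with a dashed line at their median of 0.23 and a red line for each lipogenesis gene; the last bar gathers all larger values. The 9 genes stand in the right tail, from 0.61 for Me1 to 1.12 for Fasn.

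The genes did not vary independently of each other. When each mouse was expressed as its deviation from its group mean, all 9 genes were above the mean in Cd mouse 1, Cd+Se mouse 14 and Se mouse 40, and all 9 were below it in Cd mouse 5, Cd+Se mouse 15 and Se mouse 41. In control mouse 27, Cd mouse 2 and Cd+Se mouse 16, 8 of 9 were above, and in control mice 29 and 30 and Se mouse 44, 8 of 9 were below. Across the 16 mice, the 36 pairs of genes had Pearson r from 0.55 to 0.94 with a median of 0.85, and Spearman rho from 0.49 to 0.94 with a median of 0.84. Without the 2 mice farthest from the median of the first gene of a pair, the median r was 0.81 and the lowest 0.37. These mice share library preparation and scaling, and the deviations of many genes moved together: over the other 11757 genes tested, the median r with the mean standardised deviation of the 9 genes was 0.35 and the 95th percentile was 0.72. Centring each library on its median took that all-gene median to -0.01 and left the median over the 36 pairs at 0.83, with quantile normalization at 0.83 and 0.01 for all genes. Leaving out 1 mouse at a time, the median over pairs ran from 0.81 to 0.89.

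**Figure D4:**
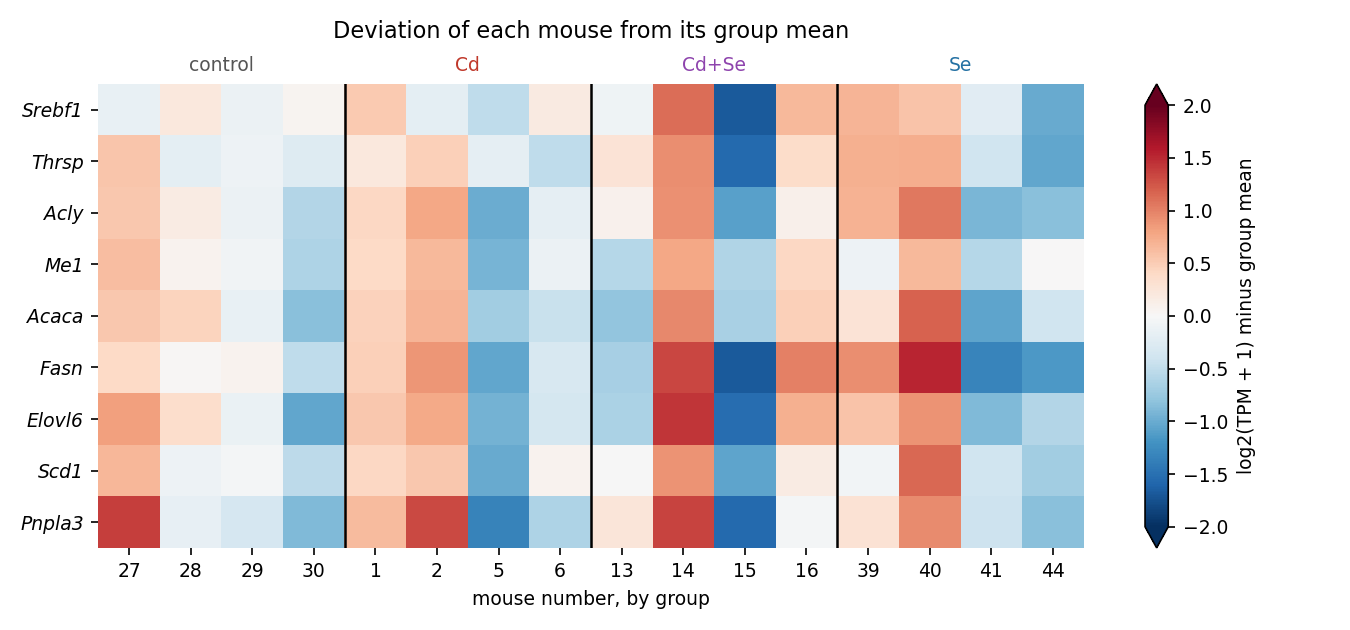
Deviation of log2(TPM + 1) from the group mean for each lipogenesis gene (rows) in each mouse (columns, by group), red above and blue below. Whole columns share a colour, most plainly in Cd+Se mice 14 and 15 and Se mouse 40, while Srebf1 is pale in the 4 control mice.

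Srebf1 followed the others less closely than they followed each other. Its 8 pairs had a median r of 0.74 and a range from 0.55 to 0.84, and the 28 pairs without it a median of 0.87. In control mice the gap was plainest, for control mouse 27 was the highest of the 4 for all 8 of the other genes and the lowest for Srebf1. Ratios within a library, to which scaling does not matter, were looked at after these values had been seen. The Fasn to Srebf1 ratio of TPM ran from 0.81 to 1.76 in control mice and from 1.88 to 5.82 in Cd mice, and the Me1 to Srebf1 ratio from 0.50 to 1.35 and from 1.76 to 4.22. These were the 2 of 8 genes whose ratio was higher in Cd mice without overlap, where 81.5% of the other 11765 genes tested had such a ratio. The exact permutation p of each was 0.0286, and 0.114 after adjustment over the 8 genes. In Cd+Se mice the ratio was higher without overlap for Me1, Acaca and Scd1, 3 of 8, where 79.4% of all genes had one. For each of these the exact permutation p was 0.0286, and 0.0762 after the same adjustment. Scd1 per Srebf1 was between 14.3 and 37.6 in control and between 39.8 and 89.8 in Cd+Se mice.

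The 10 genes whose deviations were most like the mean of the 9 were Zcchc14 (r = 0.96), Slc2a4 (0.94), Ces2g (0.94), Xpo1 (0.94), Man2a2 (0.93), Actb (0.93), Mettl9 (0.93), Gm11967 (0.93), Olfml1 (0.92) and Tuba1b (0.92), each over 16 mice and 11757 genes ranked. Slc2a4 encodes the insulin-regulated glucose transporter GLUT4, and Actb and Tuba1b encode cytoskeletal actin and tubulin. After centring each library on its median, 5 of the 10 were still among the nearest 10, namely Slc2a4, Man2a2, Zcchc14, Xpo1 and Gm11967, whereas r fell to 0.69 for Actb and 0.68 for Mettl9. Most opposite were Cth (r = -0.87), which encodes cystathionine gamma-lyase, and Oat (r = -0.84), which encodes ornithine aminotransferase, and after centring they were at -0.86 and -0.80. In the pathway lists the closest genes, named after their values were seen, were Pgd (0.90), which yields NADPH in the pentose phosphate path, Pklr (0.89), the liver pyruvate kinase, and Mid1ip1 (0.86), a relative of Thrsp. The median r was 0.75 over 8 genes of citrate export and NADPH supply and 0.77 over 12 genes of malonyl-CoA, elongation and desaturation. It was 0.19 over 10 genes of lipid droplets and lipolysis. Values as high were not confined to the pathway, with medians of 0.74 over 5 sinusoidal endothelium markers and 0.68 over 3 stellate cell markers. The median over all other genes tested was 0.35. The list medians were not recomputed with libraries centred.

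The mouse furthest below its group mean in the lipogenic genes also stood apart in some genes of the fasted state, which were chosen after their values were seen. Cd+Se mouse 15 had Igfbp1, which insulin represses, at 763 TPM, where the other 15 mice had 7.53 to 151 TPM. It had Cyp4a14, a target of the fatty acid sensor PPARalpha, at 1289 TPM, where the other 15 mice had 2.76 to 262 TPM. Pck1, the gluconeogenic enzyme, was at 1907 TPM in mouse 15 and at 237 TPM in mouse 14, the Cd+Se mouse in which all 9 lipogenic genes were above the group mean, but mouse 13 also had 1710 TPM. Other genes of the fasted state did not stand apart in mouse 15: Cpt1a, the mitochondrial entry step of fatty acid oxidation, was at 112 TPM, with the other 15 mice between 43.3 and 118 TPM, and the hormone gene Fgf21 was at 9.81 TPM, with the others between 2.43 and 133 TPM. Over the 10 listed genes of the fasted state, r with the mean deviation of the 9 genes ran from -0.62 to 0.50, with a median of -0.36. It was -0.49 for Igfbp1, -0.50 for Cyp4a14 and -0.44 for Pck1, but 0.05, -0.04 and 0.10 without the 2 farthest mice. For Cpt1a it was -0.26 and for Fgf21 0.50, and without those mice 0.08 and 0.73. The part of feeding state in the lipogenic values was not tested.

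Around the 9 genes, 71 of 74 listed genes of the pathway passed the filter, and after Cd 4 rose and 16 fell (28.2% called, beside 30.8% of all genes). Of all genes tested 5.82% rose and 24.9% fell. With libraries centred on their median, 10 of the 71 rose and 11 fell, so the balance of the directions depended on the scaling. Among the regulators of SREBP and its partners, 2 of 18 rose and 4 fell. Insig1, which holds the SREBP precursor in the endoplasmic reticulum and is itself a target of SREBP, rose from 57.3 ± 9.16 TPM in control mice to 211 ± 61.5 in Cd mice (SD, n = 4; log2 fold change 1.83, limma adjusted p = 0.000985). Single values of Insig1 were 49.5 to 68.4 TPM in control mice and 140.4 to 289 TPM in Cd mice, with no overlap. Rxra, the partner of the liver X receptor, fell from 93.4 ± 3.97 to 44.8 ± 6.75 TPM (log2 fold change -1.05, adjusted p = 5.01e-05). Nr0b2 (SHP), a repressor in bile acid signalling, rose by 0.60 (adjusted p = 0.0477), a call that was lost in 16 of 24 other settings.

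Some genes of triglyceride storage fell. Of 10 tested genes of lipid droplets and lipolysis, 4 fell and 0 rose, with a median log2 fold change of -0.41, where 24.9% of all genes fell. G0s2, an inhibitor of the lipase ATGL, fell from 131 ± 29.02 to 44.5 ± 26.6 TPM in Cd mice (log2 fold change -1.73, adjusted p = 0.00415). Fitm2, which takes part in droplet formation, fell from 19.3 ± 3.56 to 6.34 ± 0.626 TPM (-1.46, adjusted p = 3.46e-05), and Plin5, a droplet coat protein, by 1.03 (adjusted p = 0.0373, lost in 9 of 24 other settings). Among 10 genes of triglyceride synthesis, Acsl1, which activates fatty acids, fell by 1.09 and Dgat2, the final acyltransferase, by 0.83, while Acsl3 rose by 1.07 (adjusted p = 0.000746, 0.000405 and 0.0222, the last lost in 4 of 24 other settings). In the lists upstream of these, 1 of 8 genes of citrate export and NADPH supply fell (Pcx, pyruvate carboxylase, by 0.77), as did 2 of 12 of malonyl-CoA, elongation and desaturation (Hacd3 by 0.66 and Mlycd by 0.42, the latter lost in 11 of 24 settings). In the list of insulin signalling and glucose input, 3 of 13 fell, among them Prkaa2, a subunit of AMPK, by 0.89 and the insulin receptor gene Insr by 0.60, and Gckr, the glucokinase regulator, rose by 0.59. None of the genes named from these lists for a call in Cd against control or in Cd+Se against Cd changed sign in that comparison in any of 24 settings.

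**Figure D5:**
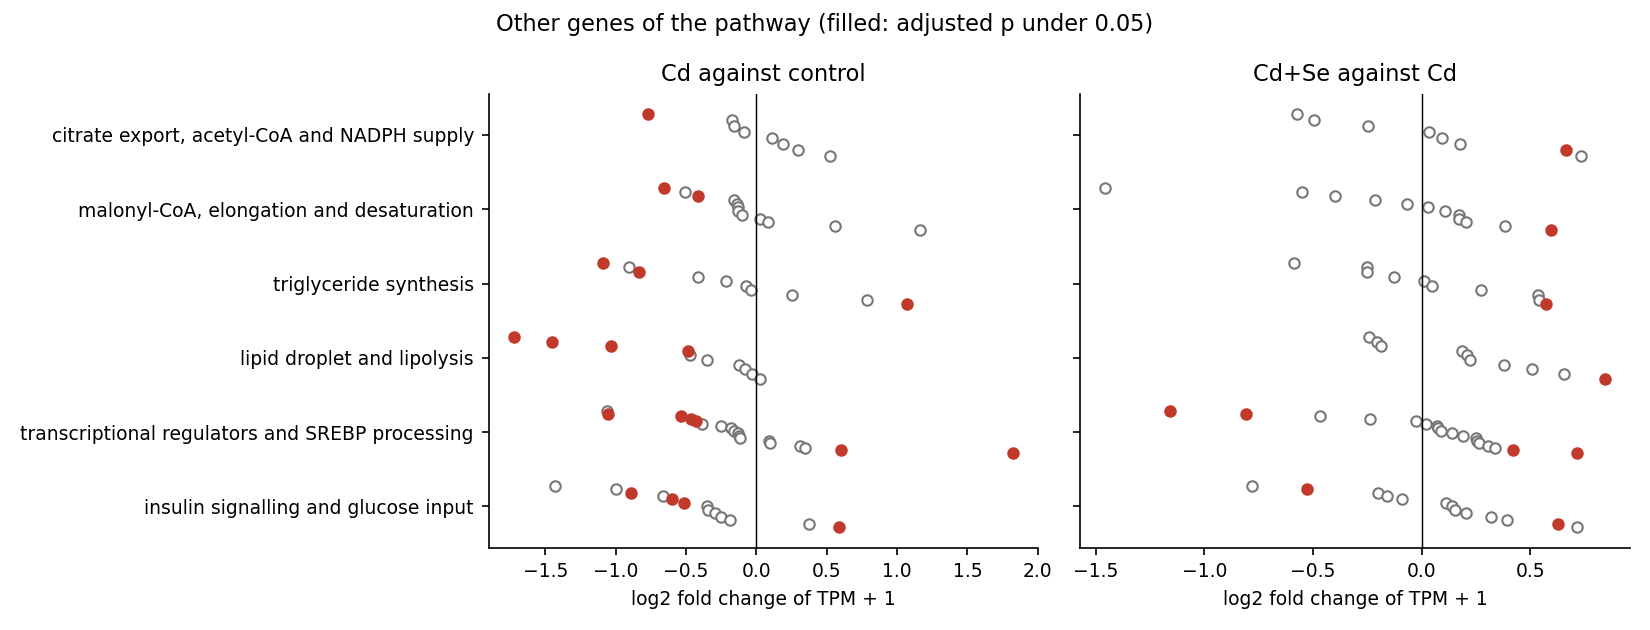
Log2 fold change of TPM + 1 of the 71 tested genes in 6 pathway lists, by list, in Cd against control and in Cd+Se against Cd, with filled points where the limma adjusted p was under 0.05. In Cd against control 16 filled points lie below 0 and 4 above (11 and 10 with libraries centred on their median), and in Cd+Se against Cd 3 lie below and 7 above (9 and 6 with centring).

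In Cd+Se against Cd, 7 of the 71 pathway genes rose and 3 fell (14.1% called, beside 15.9% of all genes). Of all genes 13.6% rose and 2.35% fell. The balance turned with the scaling: 6 of the 71 rose and 9 fell after centring on library medians, and 6 rose and 4 fell after quantile normalization. The 7 that rose included Fitm2 (0.84), Rxra (0.72), Pcx (0.66), Insr (0.63), Hacd3 (0.59) and Dgat2 (0.57), and Insig1 (-1.16), Nr0b2 (-0.81) and Gckr (-0.53) fell. Of 24 other settings, the call was lost in 7 for Hacd3, 6 for Insig1, 5 for Nr0b2, 3 for Insr and 1 each for Fitm2, Rxra, Pcx, Dgat2 and Gckr. The level of Rxra was 73.9 ± 7.82 TPM in Cd+Se mice (SD, n = 4), and that of Insig1 was 94.8 ± 30.5 TPM. This comparison shares its Cd mice with Cd against control, so the signs of the 2 are not independent. The interaction passed the threshold for Fitm2 (0.97, adjusted p = 0.0416) and Rxra (0.87, adjusted p = 0.029) among the 71. Against control, 2 genes were lower in Cd+Se mice, G0s2 (-1.92, adjusted p = 0.0368) and Plin2 (-0.73, adjusted p = 0.0445), the latter named for its call here. Plin2 was also lower in Cd against control (-0.49, limma adjusted p = 0.025). It was not called in Cd+Se against Cd (-0.24, adjusted p = 0.283).

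Some other features of the libraries moved with Cd. In Cd against control, 5.82% of all genes tested rose and 24.9% fell, the shares to set beside the counts here. Mt1, the metal-binding metallothionein used as a label check, was at 3178 to 4899 TPM in Cd and 3621 to 6070 TPM in Cd+Se mice, and at 50.9 to 431 TPM in mice without Cd. Hepatocyte markers fell in 3 of 6 cases (Hnf4a, Cps1 and Serpina1c), while Alb (log2 fold change -0.68), Apoa1 (0.43) and Ttr (0.09) were not called, with a summed level of 39215 to 65724 TPM in Cd and 61142 to 81807 TPM in control mice. Of 6 Kupffer cell and macrophage markers 5 fell, with a summed level of 23.3 to 36.03 TPM in Cd and 73.2 to 87.8 TPM in control mice. Of 5 neutrophil markers 3 were tested and all 3 rose, with a summed level of 31.3 to 40.1 TPM in Cd and 5.82 to 16.04 TPM in control mice. Among clock genes, 1 of 11 tested rose and 3 fell, near the shares over all genes. Cd mouse 5 had the lowest median of log2(TPM + 1), 2.68, where the other 15 libraries had 2.90 to 3.36. The part of these shifts in the values of the lipogenesis genes was not tested, and in bulk liver fewer cells of a type and less RNA per cell cannot be told apart.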

How the data were processed

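Per the labels, poly(A) liver RNA was sequenced on an Illumina NovaSeq. The submitters' processing notes name fastp, HISAT2 and StringTie without versions, and the build GRCh38, although the identifiers are mouse Ensembl genes. The authors deposited 1 table of TPM with 57010 genes and 16 libraries, each summing to the same total. TPM keep no depth, so depth is unknown and precision rests on 4 mice per group.

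Values were compared as log2(TPM + 1) with limma 3.58.1 in R 4.3.3, for 11766 genes averaging 1 TPM or more, in 1 model of 4 group means with an intensity trend and Benjamini-Hochberg adjustment at 0.05. Fold changes on this scale understate changes of low genes. Single values were compared by exact two-sided permutation over 70 arrangements. The fit was tested on simulated data. Alternatives were a pseudocount of 0.1, no filter, a mean of at least 5 TPM, quantile normalization, centring on library medians, TPM rescaled without the 10 highest and the mitochondrial genes, no trend, only the 2 groups compared, an added fold threshold, and leaving out each mouse.

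The 9 genes, the lists and the tests were chosen with earlier results of these data known. Named besides the 9 are, from each of 6 pathway lists, up to 3 called genes with the largest change in Cd against control and in Cd+Se against Cd, the 10 genes of nearest pattern, and Mt1. Plin2, Pgd, Pklr, Mid1ip1, the genes named for their standard errors, the most opposite genes and the genes of the fasted state were added after their values were seen, as were the other settings for the correlations and for the ratio of Pnpla3. Positions are from GENCODE M21 and sequences from RefSeq. Mouse numbers are not shared between groups.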

Additional observations from a re-analysis of the deposited data

Results flagged for a closer look

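Dixon's ratio sets an extreme mouse's distance from its neighbour against the range of all 4. It was taken on TPM and not on log2(TPM + 1), where high values stand out less. Chance alone gives about 1 flag in 20 sets, or 1.8 of 36. Among the 36 sets of 4 mice (9 genes in 4 groups), 2 had a mouse far from the other 3 by this ratio. Both were control mouse 27. Its Thrsp was 686 TPM where the other control mice had 389.9 to 433 TPM, a ratio of 0.855. Its Pnpla3 was 5.89 TPM where the others had 0.42 to 1.35 TPM, a ratio of 0.83.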

How the results depend on the processing

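Over 54 member results (9 genes in 6 comparisons) and 1281 values under other settings, 1216 kept direction and side of the threshold, 9 lost a call, all for Srebf1 in Cd against control, 0 gained one and 56 changed sign, in 20 results of which none was called. The count of genes called in Cd against control was 1 as reported, 0 with no filter on low values and 0 with centring on library medians, and 0 to 1 when single mice were left out. It was 0 in every setting for the other comparisons. The cause was not tested. Signs turned with centring for Fasn in Cd against control (4.27e-05). For Cd+Se against Cd they turned for Acly with quantile normalization (-0.022), centring (-0.18) and rescaling (-0.0028), and for Elovl6 with quantile normalization (-0.0073) and centring (-0.11). Without single mice, log2 fold changes that turned sign ran as follows. In Cd against control Me1 ran from -0.070 to 0.45 and Fasn from -0.51 to 0.13. In Cd+Se against Cd Srebf1 ran from -0.67 to 0.26, Acly from -0.31 to 0.38 and Elovl6 from -0.39 to 0.59. In Cd+Se against control Me1 ran from -0.44 to 0.018, Acaca from -0.53 to 0.058, Scd1 from -0.62 to 0.029 and Pnpla3 from -0.15 to 0.82. In Se against control Me1 ran from -0.13 to 0.29, Acaca from -0.62 to 0.12 and Scd1 from -0.59 to 0.028. In Cd+Se against Se Acly ran from -0.37 to 0.29, Acaca from -0.32 to 0.42, Fasn from -0.81 to 0.20, Elovl6 from -0.61 to 0.38 and Scd1 from -0.42 to 0.26. For the interaction Thrsp ran from -0.84 to 0.024, Fasn from -0.59 to 0.42 and Pnpla3 from -0.87 to 0.12. Over all genes in Cd against control, 685 rose and 2934 fell as deposited, 1710 and 2276 after quantile normalization, and 2260 and 1804 after centring. Of the 71 pathway genes 10 rose and 11 fell after centring, in place of 4 and 16. For Cd+Se against Cd, 1600 of all genes rose and 276 fell as deposited, 1170 and 908 after quantile normalization, and 937 and 1272 after centring. No paired analysis was possible because mouse numbers are not shared between groups.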
